A study of Mus musculus with 20 samples.

Results

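The interaction of genotype and lipopolysaccharide (LPS) asks whether the hippocampus of mice labelled Fkbp5 knockout answered an endotoxin challenge differently from that of wild-type mice. It was computed for each gene as the log2 difference between LPS and saline in knockout mice minus the same difference in wild-type mice. A positive value means a higher response in the knockout. All 20 libraries of the series entered it, chosen by their labels: 5 from wild-type mice given saline, 5 from wild-type mice given LPS, 5 from Fkbp5 knockout mice given saline and 5 from knockout mice given LPS. All mice were males of the C57BL/6J strain aged 12 weeks, injected once into the peritoneum with saline or with LPS at 3 mg/kg, and the hippocampus was taken on day 7. The labels name neither the knockout's design nor any promoter or Cre line, and they do not say whether each library is 1 animal, so p-values measure the spread between these libraries, which may be technical.

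FKBP5 is a co-chaperone that joins HSP90 on the glucocorticoid receptor and lowers its affinity for hormone. Its own gene is induced by the receptor, which closes a short negative feedback loop. LPS, a component of the outer membrane of Gram-negative bacteria, is sensed by Toll-like receptor 4 and sets off NF-kB and interferon signalling in myeloid cells, to which microglia, astrocytes and the brain vasculature respond. Glucocorticoids restrain that signalling.

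Total counts per library ran from 16652992 to 27230202. Replicates 1 and 2 of every group formed one library set and replicates 3 to 5 the other. The leading principal component (52.9% of the variance) split the sets, and mitochondrially encoded genes took 4.66% to 5.68% of counts in the first set and 8.41% to 11.4% in the second. The labels do not say what the sets are. Each group holds both in the same numbers, so the set was a term of the fit. Values within each set are given beside the pooled ones for some of the genes and lists. Hippocampal markers were present in every library, from 93.9 to 179 CPM (counts scaled to the library total) for Prox1 of dentate granule cells and from 50.6 to 261 CPM for Wfs1 of CA1 neurons. Because the tissue is bulk, fewer cells of a type and less RNA per cell cannot be told apart.

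Fkbp5 (mm10 chromosome 17, 28399094 to 28517527) was read first as a check of the labels. Wild-type saline libraries held 58.4, 71.9, 59.9, 56.7 and 68.5 CPM in the order of replicates 1 to 5, and wild-type LPS libraries 73.4, 60.3, 67.6, 63.7 and 66 CPM. In the knockout, saline libraries held 35, 26.8, 27.9, 27.6 and 36 CPM, and knockout LPS libraries 35.1, 28.6, 31.8, 25.1 and 26.6 CPM. No knockout library reached any wild-type library, and transcript remained in all knockout libraries. Knockout against wild-type gave a log2 difference of -1.04 ± 0.10 (SE) after saline and -1.17 ± 0.10 after LPS (edgeR quasi-likelihood, Benjamini-Hochberg adjusted p = 2.82e-06 and 4.76e-07). The Fkbp5 response to LPS was 0.07 in wild-type and -0.06 in knockout on the log2 scale, an interaction of -0.13 with a 95% interval of -0.43 to 0.17.

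No gene passed the test of the interaction. Of 16419 genes tested, 0 (0%) were higher and 0 (0%) lower in their response in the knockout at an adjusted p under 0.05 (edgeR quasi-likelihood), and the smallest adjusted p was 0.989. DESeq2 and limma-voom also called 0. At an unadjusted p under 0.05, edgeR listed 472 genes (2.87%), 241 (1.47%) above 0 and 231 (1.41%) below, DESeq2 483 (2.94%) and limma-voom 525 (3.2%). When no gene differs, this level lists a share of 0.05 of genes on average, so these counts show no excess. With only wild-type saline replicate 2 left out, edgeR listed 1064 of 16568 genes (6.42%), above that share, and called 0. Of the 472, 213 had a positive fitted response in wild-type and a negative one in knockout, and 232 the reverse. Another 21 were positive in both and 6 negative in both. Over all genes, 3260 (19.9%) were positive in wild-type and negative in knockout. Selection by a small interaction p favours opposite signs, so the split is a description only. The median interaction over all genes was 0.02, with 53.8% of genes above 0. The 95% interval of a gene reached a median of 0.38 log2 units to either side of its estimate, and under 1 for 14202 genes (86.5%).

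Each genotype on its own gave few calls. LPS raised 3 genes in wild-type (0.0183% of those tested) and 7 in knockout (0.0426%), and these were all the calls. The wild-type calls were Saa3, Lag3 and Lyz2. The knockout calls were Saa3, Lag3, H2-D1, Tlr2, Csf3r, Neurl3 and Unc93b1. A call in 1 genotype only is not a difference between genotypes: none of these 8 genes passed the interaction. The calls other than Saa3 and knockout Lag3 sat near the threshold. When each of the 20 libraries was left out in turn, Saa3 kept its call in 20 fits in both genotypes and Lag3 in 20 in knockout. In wild-type Lag3 kept it in 2 and Lyz2 in 3, and in knockout Csf3r in 16, Tlr2 in 14, Unc93b1 in 12, Neurl3 in 7 and H2-D1 in 4. The fitted responses moved little in those fits: 0.92 to 1.04 for wild-type Lag3, 1.21 to 1.51 for Lyz2, 1.06 to 1.28 for Csf3r, 1.6 to 1.88 for Tlr2, 0.52 to 0.65 for Unc93b1, 1.11 to 1.29 for Neurl3 and 0.71 to 0.86 for H2-D1. Without wild-type LPS replicate 1 and knockout saline replicates 4 and 5, the libraries highest on markers of the meninges, the calls were Saa3 in wild-type and Saa3 and H2-D1 in knockout. Without the set term the calls were 0 in wild-type and 1 in knockout, Lag3. Every LPS library stood above every saline library for 45 genes in wild-type (0.274%) and 47 in knockout (0.286%). It did so in both genotypes for 6 (0.0365%): Saa3, Lag3, Neurl3, Hpse and the class I genes H2-D1 and H2-K1. For no gene did every LPS library stand above every saline library in one genotype and below in the other. The number of genes that would separate in this way without any LPS effect was not computed, so these counts are a description only.

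**Figure D1:**
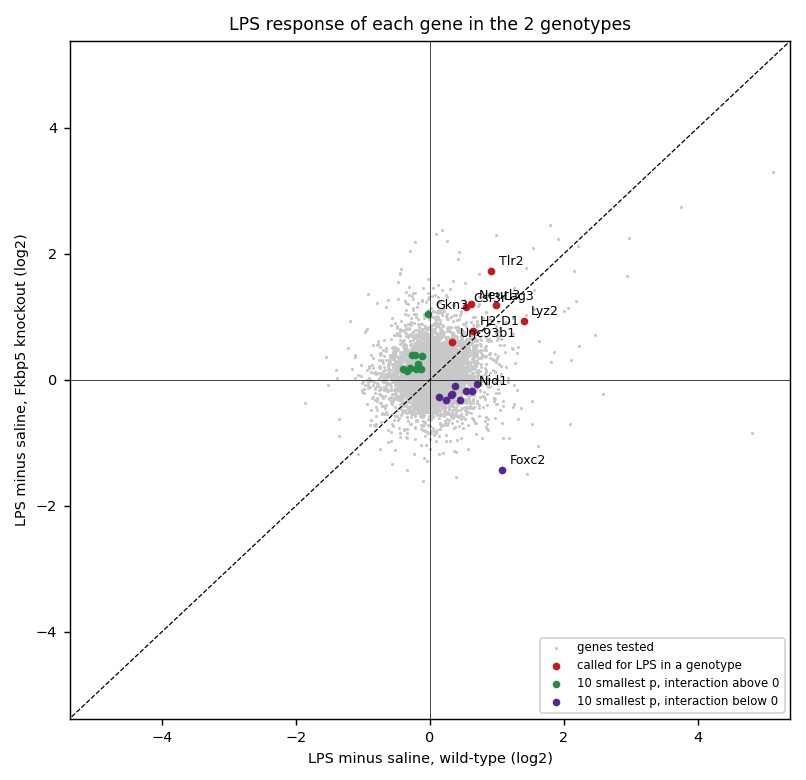
LPS response of each tested gene in wild-type (horizontal axis, log2) and in Fkbp5 knockout (vertical axis, log2), with the dashed line marking equal responses; Saa3, which has no count after saline, is left out. Red genes passed the LPS test in a genotype and lie near or above the line except Lyz2, and the 10 genes with the smallest interaction p on each side (green and purple, none past the threshold) lie off the line in its upper-left and lower-right neighbourhoods.

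Of the 8 genes that LPS raised, the promoters of 3 are shown because they carry a sequence resembling those bound by NF-kB, a factor that LPS signalling activates. Promoter windows from RefSeq (GRCm38.p6, 250 bases before to 50 after the transcript start) were used for 6 of the 8 genes; those of Lag3 and Unc93b1 were not analysed here. Capitals mark the motif searched on both strands: GGG, any 2 bases, TT, any base, CC. The motif was chosen after these windows were read. It occurs in 1575 of 32851 windows in the table (4.79%), and a match is a description of the letters only. The windows of Saa3, Lyz2 and Csf3r hold no match. Tlr2 lies at chr3:83841559-83841858 (minus strand), Neurl3 at chr1:36273376-36273675 (minus strand) and H2-D1 at chr17:35262844-35263143 (plus strand). The Tlr2 match reads the same on both strands, and the Neurl3 match lies on the opposite strand to the gene.
Tlr2: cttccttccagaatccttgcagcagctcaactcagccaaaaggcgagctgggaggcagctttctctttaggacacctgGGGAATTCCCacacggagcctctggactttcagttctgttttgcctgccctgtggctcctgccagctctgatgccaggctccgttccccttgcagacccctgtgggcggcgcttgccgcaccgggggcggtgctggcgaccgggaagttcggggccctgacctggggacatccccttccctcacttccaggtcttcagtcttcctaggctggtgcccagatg
Neurl3: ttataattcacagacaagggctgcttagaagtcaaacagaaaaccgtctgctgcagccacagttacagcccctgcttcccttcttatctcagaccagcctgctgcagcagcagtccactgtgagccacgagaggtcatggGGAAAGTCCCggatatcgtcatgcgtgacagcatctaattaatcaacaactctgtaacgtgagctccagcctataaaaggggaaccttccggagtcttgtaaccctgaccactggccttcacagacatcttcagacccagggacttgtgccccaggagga
H2-D1: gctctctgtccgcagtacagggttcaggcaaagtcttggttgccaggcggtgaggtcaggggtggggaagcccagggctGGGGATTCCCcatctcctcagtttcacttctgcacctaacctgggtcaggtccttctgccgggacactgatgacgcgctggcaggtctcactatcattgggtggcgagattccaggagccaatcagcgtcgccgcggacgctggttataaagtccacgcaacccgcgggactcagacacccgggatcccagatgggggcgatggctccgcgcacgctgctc

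Tlr2, Csf3r, Neurl3 and Unc93b1, all called in knockout only, shared a pattern: their knockout saline libraries were low and their LPS levels were close between genotypes. H2-D1, given below and also called in knockout only, had the same order of means. It had 31.3 CPM in knockout saline and 34.9 CPM in wild-type saline, and after LPS the genotypes differed by -0.02 on the log2 scale. Csf3r, Neurl3 and Unc93b1 lie outside the rule for named genes and were chosen after their values were seen. Selection by the knockout contrast used the same knockout saline libraries, so the low saline levels are a description and nothing is read from them. Tlr2 (chromosome 3, 83836272 to 83841767) encodes the receptor for bacterial lipoproteins. Wild-type saline libraries held 0.457, 1.01, 1.55, 0.888 and 2.02 CPM and wild-type LPS libraries 2.29, 1.83, 1.93, 2.7 and 1.96 CPM. After saline the knockout held 0.507, 0.511, 0.769, 0.831 and 0.829 CPM and knockout LPS libraries 1.81, 2.26, 3.33, 1.47 and 2.32 CPM. The knockout groups did not overlap and the wild-type groups did, through 1 saline library at 2.02 CPM. The log2 response was 0.91 in wild-type (edgeR adjusted p = 0.924) and 1.73 in knockout (adjusted p = 0.0181). The interaction was 0.81 ± 0.39 (SE), positive in both library sets (0.50 and 0.97), with an adjusted p of 0.989.

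Csf3r, the receptor for granulocyte colony-stimulating factor, held 7.45, 4.34, 3.09, 3.97 and 2.88 CPM in wild-type saline and 10.5, 8.89, 4.38, 3.18 and 5.35 CPM in wild-type LPS. In the knockout it held 3.66, 5.07, 2.16, 2.05 and 3.43 CPM after saline and 10.4, 8.09, 5.89, 5.7 and 5.83 CPM after LPS. Replicates 1 and 2 were the highest libraries in all 4 groups, and the knockout groups alone did not overlap. The log2 response was 0.53 in wild-type and 1.15 in knockout (edgeR adjusted p = 0.951 and 0.0181), an interaction of 0.61 with an interval of 0.07 to 1.16 and an adjusted p of 0.989. Csf3r is the only member of the 12-gene neutrophil and monocyte list that passed the expression filter. The other 11 members, S100a8 and S100a9 among them, were below the filter, with 4 to 119 counts each over all 20 libraries.

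Neurl3, an E3 ubiquitin ligase gene, held 0.96, 1.2, 1.01, 1.3 and 1.04 CPM in wild-type saline and 1.7, 1.54, 1.87, 1.86 and 1.5 CPM in wild-type LPS. Knockout saline libraries held 0.688, 0.639, 0.625, 0.448 and 0.774 CPM and knockout LPS libraries 1.63, 1.64, 1.04, 1.75 and 1.25 CPM. Both genotypes showed groups that did not overlap, and the interaction was 0.58 (interval -0.03 to 1.18). With the replicate number as a block its knockout response was not called (edgeR adjusted p = 0.0891, against 0.034), at a log2 response of 1.18 against 1.19. Unc93b1, which carries endosomal Toll-like receptors to their compartment, held 16.6, 14.2, 13.8, 15.2 and 17 CPM in wild-type saline and 18.6, 17, 19.9, 19.1 and 22.2 CPM in wild-type LPS. In the knockout, saline libraries held 10.3, 13.9, 13.2, 12.7 and 13.9 CPM and knockout LPS libraries 19.9, 19.9, 22.1, 16 and 18.2 CPM. The knockout groups were separate, the wild-type groups met at 17 CPM, and the interaction was 0.26 (interval -0.04 to 0.56). Genotypes after LPS differed by 0.05 for Tlr2, 0.21 for Csf3r, -0.20 for Neurl3 and -0.01 for Unc93b1 on the log2 scale (knockout minus wild-type).

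Lag3, an inhibitory receptor of activated lymphocytes that microglia also transcribe, responded in both genotypes. Wild-type saline libraries held 5.48, 5.35, 6.08, 5.45 and 6.36 CPM and wild-type LPS libraries 11, 13.3, 12.1, 9.72 and 10.7 CPM. After saline the knockout held 5.47, 7.71, 6.06, 5.56 and 7.3 CPM and knockout LPS libraries 8.66, 20.1, 16.1, 13.6 and 14.2 CPM. LPS and saline did not overlap in either genotype. The log2 response was 0.99 in wild-type and 1.18 in knockout (edgeR adjusted p = 0.0498 and 0.00439), and the interaction of 0.19 had an interval of -0.30 to 0.68. It was -0.06 in replicates 1 and 2 and 0.34 in replicates 3 to 5. Of the 14 lymphocyte markers 13 were below the filter, with 5 to 120 counts each over all libraries, and Trac alone was tested.

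Not 1 count of Saa3, which encodes an acute-phase serum amyloid, was found after saline in either genotype, which allows a level of up to 0.0314 CPM in the wild-type and 0.0284 CPM in the knockout saline group (3 counts over the group, counting error only). Wild-type LPS libraries held 1.89, 2.8, 0.451, 0.96 and 0.196 CPM and knockout LPS libraries 3.33, 2.09, 0.872, 1.07 and 1 CPM. In both genotypes replicates 1 and 2 were the high libraries, and the genotypes overlapped. With no saline count the ratio of the responses has no value, so only the LPS levels are compared, at a log2 difference between genotypes of 0.51 with an unadjusted p of 0.16 (edgeR).

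Lyz2, the lysozyme gene of macrophages and microglia, held 5.07, 3.46, 2.88, 3.67 and 3.98 CPM in wild-type saline and 19.3, 11.8, 6.06, 9.9 and 5.74 CPM in wild-type LPS. The knockout held 5.76, 6.3, 3.89, 4.03 and 4.87 CPM after saline and 14.5, 12.7, 4.47, 11.2 and 5.77 CPM after LPS. Groups overlapped in knockout and not in wild-type. The log2 response was 1.40 and 0.93, an interaction of -0.47 (interval -1.16 to 0.22). Lcn2, an iron-sequestering lipocalin of reactive astrocytes, was at most 0.913 CPM in any library, with an interaction of -1.28 (interval -3.04 to 0.47). C3, the central complement component, had an interaction of 0.57 (interval -0.75 to 1.90), and Gfap, the astrocyte filament gene, of -0.07 (interval -0.33 to 0.19).

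**Figure D2:**
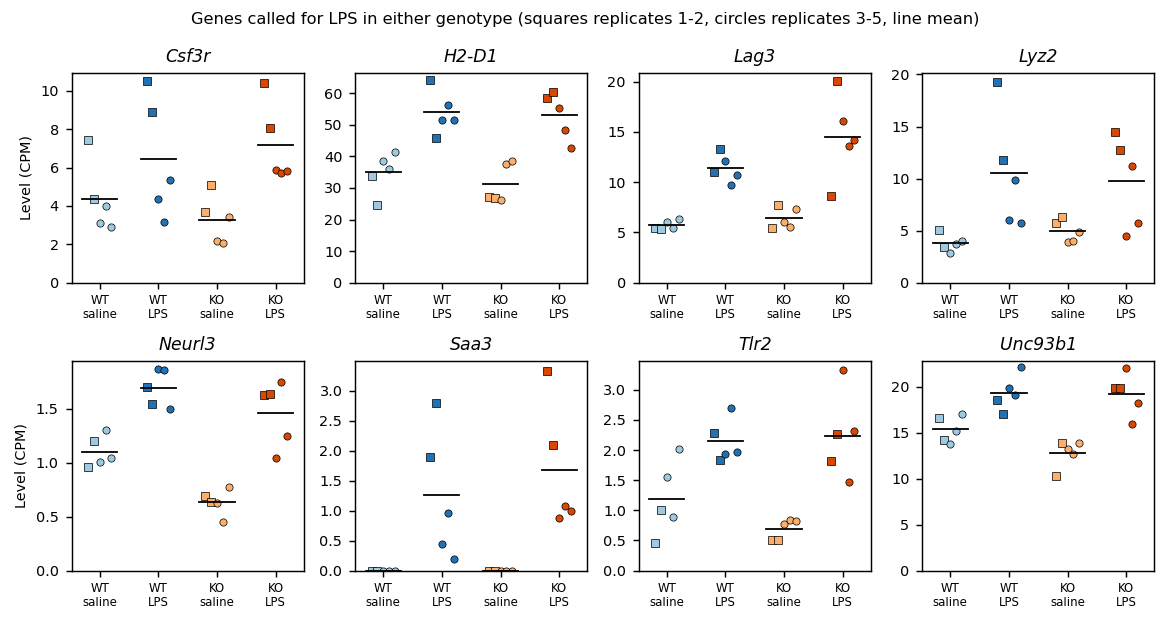
Level (CPM) by library of the 8 genes called for LPS in either genotype, in wild-type (WT) and knockout (KO), with squares for replicates 1 and 2, circles for replicates 3 to 5 and a line at the mean of 5. Saa3 lies at 0 in all 10 saline libraries. Tlr2, Csf3r, Neurl3, Unc93b1 and H2-D1 have their lowest group mean in knockout saline while the LPS groups overlap between genotypes.

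Class I antigen presentation, whose genes load peptides for T cells, leaned the same way in both genotypes. Of 15 members tested, 14 were above 0 after LPS in wild-type and 14 in knockout, with median log2 responses of 0.23 and 0.39. Over all 16419 genes, 7471 were above 0 after LPS in wild-type and 8621 in knockout. The median interaction was 0.15 with 12 of 15 above 0, beside 0.02 and 53.8% over all genes, and 0 members passed the interaction test. The median was 0.20 in replicates 1 and 2 and 0.05 in replicates 3 to 5, and 0.08 without knockout LPS replicate 2. Of the 15 members, 13 lie within 20 Mb of Fkbp5. H2-D1 (chromosome 17, 35262730 to 35267499, within 20 Mb of Fkbp5) held 33.9, 24.6, 38.5, 36.1 and 41.5 CPM in wild-type saline and 64.4, 45.8, 51.7, 56.2 and 51.6 CPM in wild-type LPS. The knockout held 27.2, 26.8, 26.2, 37.7 and 38.5 CPM after saline and 58.4, 60.5, 55.3, 48.5 and 42.6 CPM after LPS. No LPS library overlapped a saline library of its genotype, and the interaction was 0.14 (interval -0.27 to 0.55). Its knockout call (edgeR adjusted p = 0.0453) was lost with the replicate block (adjusted p = 0.0681), at a log2 response of 0.79 against 0.78. H2-Q7 (interaction 1.30, interval -0.16 to 2.77) and H2-M3 (0.48, interval -0.15 to 1.12), also within 20 Mb of Fkbp5, and B2m, the class I light chain (0.20, interval -0.12 to 0.53), were the members with the smallest interaction p. Some class I heavy chain genes are near-identical copies that can share reads. How such reads were counted is not given in the sources used here, so single members of that kind are uncertain.

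The 10 named genes with the smallest interaction p below 0 were Nid1, Zic2, Dusp16, Rora, Usp53, Itih5, Ddc, Pard3b, Foxc2 and Timp3, with unadjusted p from 0.00105 to 0.00336. Each had a positive fitted response in wild-type and a negative one in knockout, and each had the same sign in both library sets. Selection by the interaction p in the pooled fit of these libraries largely fixes both traits. Nid1 (chromosome 13, 13437551 to 13512269) encodes nidogen, which links laminin to collagen in basement membranes. Wild-type saline libraries held 5.76, 4.57, 4.32, 5.74 and 6.18 CPM and wild-type LPS libraries 9.9, 7.43, 8.57, 7.8 and 6.98 CPM. Knockout saline libraries held 7.02, 6.09, 6.49, 10.2 and 9.34 CPM and knockout LPS libraries 5.94, 6.06, 8.07, 6.77 and 7.71 CPM. Wild-type groups were separate and knockout groups overlapped, with saline replicates 4 and 5 the highest of the knockout. The interaction was -0.80 ± 0.21 (SE), -0.90 in replicates 1 and 2 and -0.73 in replicates 3 to 5.

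Zic2 (chromosome 14, 122475435 to 122479852), a zinc-finger factor gene of the developing forebrain, held 10.2, 7.52, 10.4, 11.2 and 10.5 CPM in wild-type saline and 19.2, 12.3, 13.2, 15.4 and 11.7 CPM in wild-type LPS. In the knockout, saline libraries held 14.1, 11.7, 13.2, 15.4 and 17 CPM and knockout LPS libraries 13.5, 10.9, 14, 12.4 and 11.9 CPM. Wild-type saline stood below wild-type LPS without overlap, whereas the knockout groups overlapped, and the interaction was -0.72 (interval -1.13 to -0.32). Ddc (chromosome 11, 11814101 to 11898144) encodes the decarboxylase that makes dopamine and serotonin. Wild-type saline libraries held 4.25, 3.55, 5.5, 5.8 and 5.38 CPM and wild-type LPS libraries 6.9, 8.52, 7.28, 9.3 and 7.24 CPM. After saline the knockout held 4.74, 5.79, 3.99, 5.95 and 5.97 CPM and knockout LPS libraries 6.41, 3.87, 4.25, 5.42 and 5.08 CPM. All 5 wild-type LPS libraries stood above the other 15, for an interaction of -0.77 (interval -1.24 to -0.29).

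The remaining genes below 0 are of several functions. Dusp16, a phosphatase of stress-activated MAP kinases, had log2 responses of 0.24 in wild-type and -0.33 in knockout, and Timp3, an inhibitor of matrix metalloproteinases, 0.31 and -0.25. Timp3 lies within Syn3 on the other strand, and the counting's strand setting is not given in the sources used here. Itih5, a hyaluronan-binding matrix gene, had an interaction of -0.56, Usp53 of -0.40 and the polarity gene Pard3b of -0.77. Rora, a nuclear receptor gene that is also on the thalamus list, had -0.48, and -0.41 without the 3 libraries highest on that list. Foxc2, a forkhead gene of mesenchyme that lies at 0.251 to 2.99 CPM, had -2.50 ± 0.75 (SE). With the library levels of the thalamus and meningeal lists as terms in the fit, Foxc2 came to -0.999, Zic2 to -0.42, Nid1 to -0.48 and Ddc to -0.82.

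Above 0, the 10 named genes with the smallest p were Dmac1, Gtpbp6, Htr3a, Gkn3, B4galt3, Trim67, Nat9, Poc1a, Nif3l1 and Nop10, with unadjusted p from 0.000462 to 0.00743. All 10 had a negative response in wild-type and a positive one in knockout, and all were positive in both library sets. Again, selection by the pooled fit largely fixes both the opposite signs and the agreement of the sets. Dmac1 (chromosome 4, 75277354 to 75278305), an assembly factor of respiratory complex I, held 21.2, 21.5, 26.9, 28.3 and 28.3 CPM in wild-type saline and 18.4, 15.3, 24.5, 20.6 and 20.9 CPM in wild-type LPS. Knockout saline libraries held 18, 19.6, 23.7, 20.9 and 21.8 CPM and knockout LPS libraries 19.6, 23.4, 24, 23.4 and 22.9 CPM. Groups overlapped in both genotypes, with an interaction of 0.47 ± 0.11 (SE), 0.52 in replicates 1 and 2 and 0.42 in replicates 3 to 5.

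Htr3a, the serotonin-gated channel subunit of a class of hippocampal interneurons, held 11.2, 8.76, 12.1, 14.1 and 13.6 CPM in wild-type saline and 7.81, 5.4, 10.8, 9 and 13.1 CPM in wild-type LPS. The knockout held 10.7, 8.52, 11.5, 13.2 and 10.9 CPM after saline and 10.2, 10.6, 13.1, 15 and 13.1 CPM after LPS. Its groups overlapped, and its interaction was 0.57 (interval 0.20 to 0.95). Gkn3, a gastrokine gene, held 1.12, 1.28, 1.15, 1.34 and 1.27 CPM in knockout saline and 2.79, 2.67, 2.51, 1.64 and 3.01 CPM in knockout LPS, groups that did not overlap. Its wild-type saline libraries held 1.69, 1.57, 1.71, 2.31 and 4.04 CPM and its wild-type LPS libraries 2.01, 2.64, 1.61, 2.16 and 2.41 CPM, which overlapped. The interaction of Gkn3 was 1.07 (interval 0.37 to 1.78).

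Nop10, a subunit of the ribonucleoprotein that guides RNA pseudouridylation, had an interaction of 0.44, Gtpbp6, a mitochondrial ribosome GTPase, 0.61, Trim67, a neuronal ubiquitin ligase gene, 0.66 and Poc1a, a centriole protein, 0.50. Nat9, whose knockout LPS libraries all stood above the knockout saline libraries, had 0.50, Nif3l1 0.32 and B4galt3, a galactosyltransferase, 0.37. Gtpbp6, B4galt3, Nat9 and Nif3l1 each overlap a tested gene on the other strand.

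**Figure D3:**
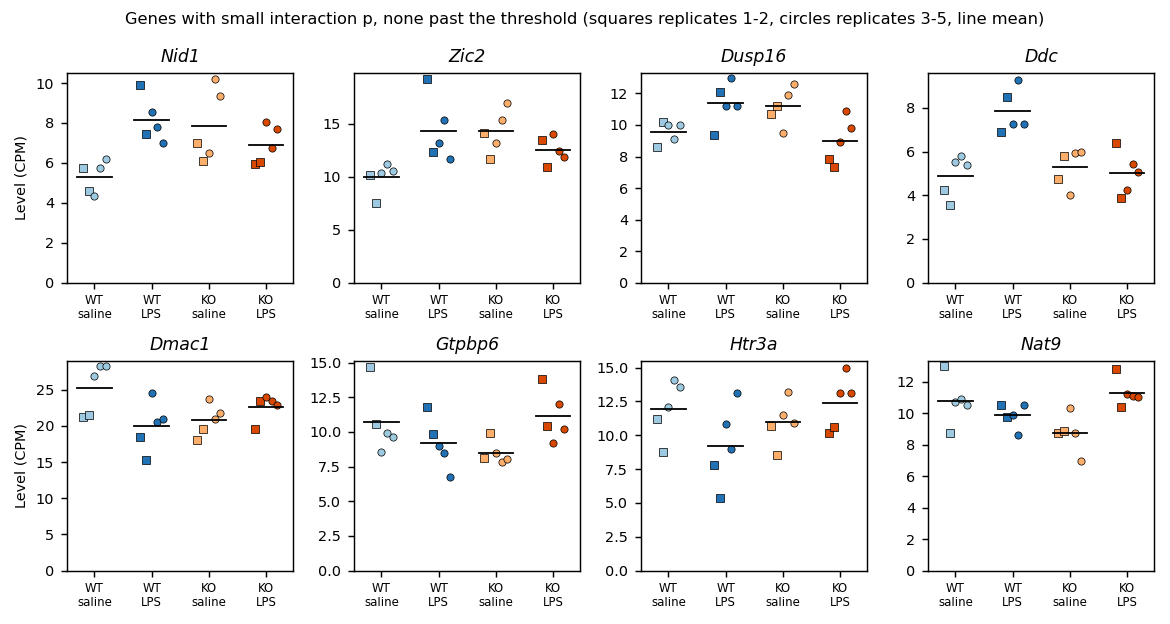
Level (CPM) by library of 8 genes with small unadjusted interaction p, 4 with a lower response in knockout (upper row) and 4 with a higher one (lower row), with squares for replicates 1 and 2, circles for replicates 3 to 5 and a line at the mean. All 5 wild-type LPS libraries of Ddc stand above its other 15 libraries, and no gene shown passed the adjusted threshold.

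Of the 39 gene lists with at least 4 tested members, markers of meningeal fibroblasts, the collagen-producing cells of the brain's coverings, had the lowest median interaction. It was -0.93, with 1 of 15 members above 0, beside 53.8% over all genes, and 7 at an unadjusted p under 0.05, beside 2.87%. None passed the test. The median response was 0.58 in wild-type and -0.48 in knockout. Of the 15 members, 14 were positive in wild-type and negative in knockout, beside 19.9% of all genes. Aldh1a2, which makes retinoic acid, had -1.56 (interval -2.60 to -0.52), the growth factor gene Igf2 -1.30 (interval -2.28 to -0.33) and the small proteoglycan gene Ogn -0.88 (interval -1.56 to -0.21). The collagen genes Col1a1 and Col1a2 had -0.93 and -1.07, and Dcn, another proteoglycan gene, was the member above 0 at 0.52. Within library sets the median was -1.25 and -0.63.

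The level of this list followed a few libraries. Its mean log2 level, centred over all 20 libraries, was 0.864 in wild-type LPS replicate 1 and 0.89 and 0.803 in knockout saline replicates 4 and 5, against -1.02 to 0.476 in the other 17. Without wild-type LPS replicate 1 the list's median interaction was -0.53, and without knockout saline replicates 4 and 5 it was -0.58. Without all 3, a fit added after the data were seen, it was -0.24 with 2 of 15 members above 0. With the thalamus and meningeal levels as terms it was -0.06, where 7 of 15 members stood above 0, as that term is built from the same genes. The thalamus list itself had 3 of 11 members above 0 and a median interaction of -0.20. That median was 0.002 in replicates 1 and 2 and -0.28 in replicates 3 to 5. Of its members, 2 had an unadjusted p under 0.05 (edgeR), or 18.2% beside 2.87% of all genes, and none passed the test. Thalamus markers were highest in wild-type LPS replicate 1 at 0.742, wild-type LPS replicate 4 at 0.509 and knockout LPS replicate 1 at 0.629. Without these 3 libraries the meningeal median was -0.51. The part of these libraries' tissue content in the result was not tested.

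Border macrophages, which live along vessels and in the meninges, had 0 of 9 tested members above 0 and a median of -0.74. The scavenger receptor genes Mrc1 (-0.74, interval -1.60 to 0.13) and Cd163 (-0.88, interval -2.04 to 0.28) and the endocytic adaptor gene Dab2 (-0.51, interval -1.10 to 0.07) had the smallest p. The list's level was highest in wild-type LPS replicate 1 (0.775) and knockout saline replicates 4 (0.776) and 5 (0.631), the libraries in which the meningeal list was high. Without wild-type LPS replicate 1 the median was -0.12, without all 3 libraries it was 0.08, and with the thalamus and meningeal terms it was 0.09.

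Class II antigen presentation genes, which border macrophages and dendritic cells carry, had 1 of 7 members above 0 and a median of -0.31, 0.05 without wild-type LPS replicate 1 and 0.26 without it and knockout saline replicates 4 and 5. It was -0.64 and -0.29 in the library sets. H2-Eb1 (-0.83) and H2-Aa (-0.63) stood below 0, and H2-DMa, a peptide-loading gene, above at 0.34 (interval 0.08 to 0.61). All 3 lie within 20 Mb of Fkbp5, and H2-DMa overlaps Brd2 on the other strand. Pericyte and smooth muscle genes had 1 of 13 above 0 and a median of -0.28. Anpep, an aminopeptidase gene, had -0.82 (interval -1.61 to -0.04). The contractile gene Cnn1 had -1.66 (interval -3.39 to 0.07) at only 0.103 to 1.22 CPM, and was below the filter in replicates 3 to 5. Acta2, also contractile, had -0.85 (interval -1.93 to 0.24). It was at 0.07 in replicates 1 and 2, -1.47 in replicates 3 to 5, and -0.16 without knockout saline replicates 4 and 5. The list's median was 0.07 in replicates 1 and 2 and -0.32 in replicates 3 to 5, and -0.03 without knockout saline replicates 4 and 5.

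Markers of homeostatic astrocytes, which clear glutamate and buffer potassium, stood below 0 in 16 of 16 cases, with a small median of -0.20. The median response was 0.07 in wild-type and -0.07 in knockout. The gap junction gene Gjb6 had -0.36 (interval -0.63 to -0.09), the bicarbonate transporter gene Slc4a4 -0.39 and the water channel gene Aqp4 -0.25 (interval -0.51 to 0.01). All 16 members also stood below 0 without the 3 libraries highest on thalamus markers (median -0.17), without the 3 highest on meningeal markers (-0.21) and with both levels as terms (-0.18), and 14 of 16 did by limma-voom (-0.12). The median was -0.35 in replicates 1 and 2, where 1 member stood above 0, and -0.11 in replicates 3 to 5, where 4 did. Levels of the list, as a mean log2 centred over all libraries, followed the library set. They lay between -0.484 and -0.0871 for replicates 1 and 2, and between 0.0908 and 0.284 for replicates 3 to 5. Lowest were wild-type saline replicate 1 (-0.484) and knockout LPS replicate 1 (-0.431), and a low level in either group lowers the interaction. Wild-type LPS replicate 1 (-0.296) and knockout saline replicate 1 (-0.254) were also low, and a low level in those groups raises it. As genes are not independent replicates, the count of 16 is a description. None of the members passed the test, and the difference between this list and others was not tested. Pan-reactive astrocyte genes had 4 of 11 above 0 and a median of -0.07, with the filament gene Vim at -0.37 (interval -0.67 to -0.08) and the ferroxidase gene Cp at -0.85 (interval -1.43 to -0.27).

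Brain endothelial markers had 3 of 16 members above 0 and a median of -0.18. The drug efflux pump gene Abcb1a had 0.44 in wild-type and -0.10 in knockout, an interaction of -0.54 (interval -0.89 to -0.19), with -0.56 and -0.55 in the library sets. Dentate granule cell markers had 1 of 11 above 0 and a median of -0.22, at -0.33 in replicates 1 and 2 and -0.02 in replicates 3 to 5, where 4 of 11 stood above 0. Npnt (-0.35), Lct (-0.31) and Prox1 (-0.29), the fate-determining homeobox gene of these neurons, had the smallest p. The 7 residual blood genes had a median of -0.23, at -0.60 in replicates 1 and 2 and 0.14 in replicates 3 to 5.

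At the other end stood ependymal cilia, interneurons, class I, cytosolic ribosomal proteins, immediate early genes and CA1 neurons. Ependymal cilia genes had 10 of 11 above 0 and a median of 0.22, but 1.04 in replicates 1 and 2 against -0.34 in replicates 3 to 5. Interneuron markers had 12 of 16 above 0 and a median of 0.16, close in both sets (0.22 and 0.14). The neuropeptide genes Sst (0.44, interval -0.07 to 0.94) and Npy (0.27, interval -0.06 to 0.61) followed Htr3a in the order of p. Cytosolic ribosomal protein genes had 29 of 30 above 0 and a small median of 0.14, with 0.15 and 0.11 in the sets. Rpl27 (0.30, interval -0.05 to 0.65), Rpl37 (0.27) and Rps3 (0.20) had the smallest p. Their level differed more between library sets than between groups: the mean log2 level lay between -0.72 and -0.243 in all 8 libraries of replicates 1 and 2, and between 0.181 and 0.455 in all 12 of replicates 3 to 5.

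Immediate early genes, which neurons transcribe after activity, had 13 of 19 above 0 and a median of 0.11, at -0.24 in replicates 1 and 2 and 0.40 in replicates 3 to 5. Npas4 had 0.76, Nr4a1 0.53 and Egr2 0.84, with intervals that include 0 for each. Nr4a1 and Egr2 turned negative in replicates 1 and 2, at -0.13 and -0.77. CA1 markers had 7 of 10 above 0 and a median of 0.09, at 0.14 and 0.09 in the library sets.

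**Figure D4:**
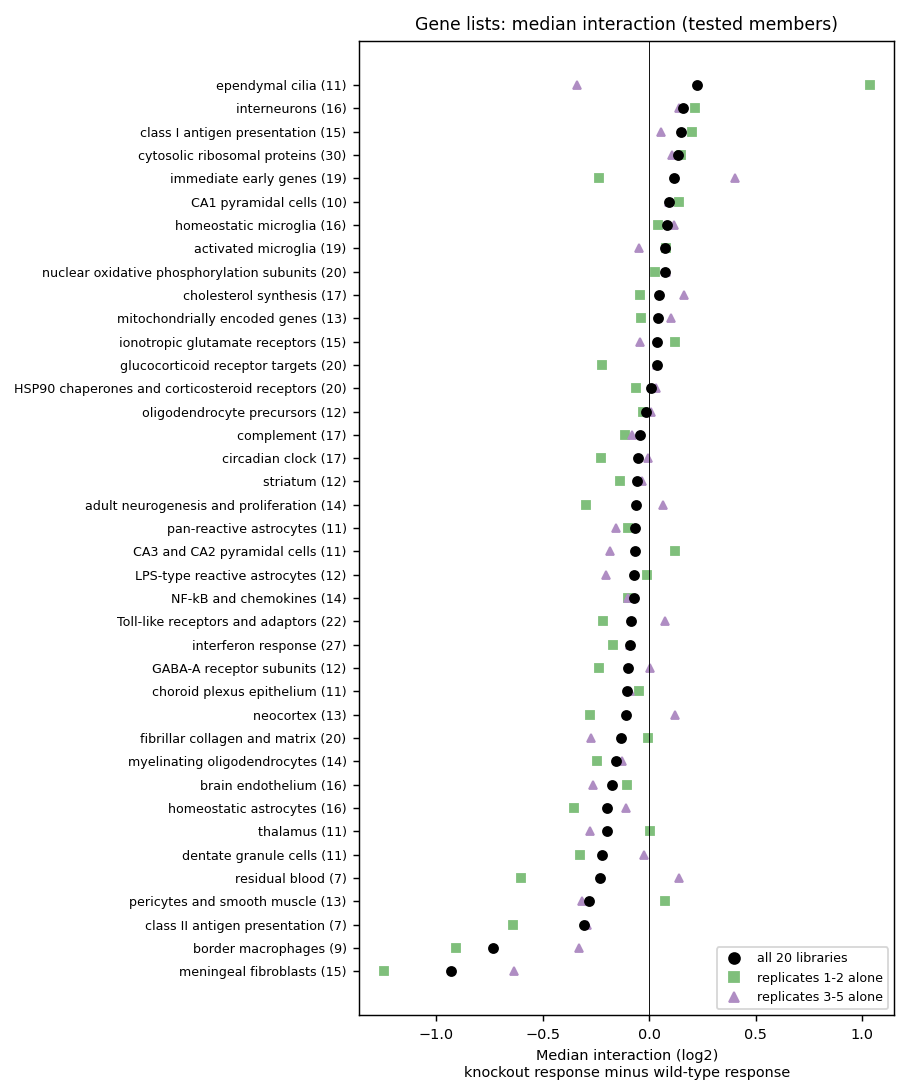
Median interaction (log2) over the tested members of each gene list, with the number tested in parentheses, for all 20 libraries (circles), replicates 1 and 2 alone (squares) and replicates 3 to 5 alone (triangles). Meningeal fibroblasts (-0.93) and border macrophages (-0.74) lie furthest below 0, and ependymal cilia take opposite signs in the library sets.

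**Figure D5:**
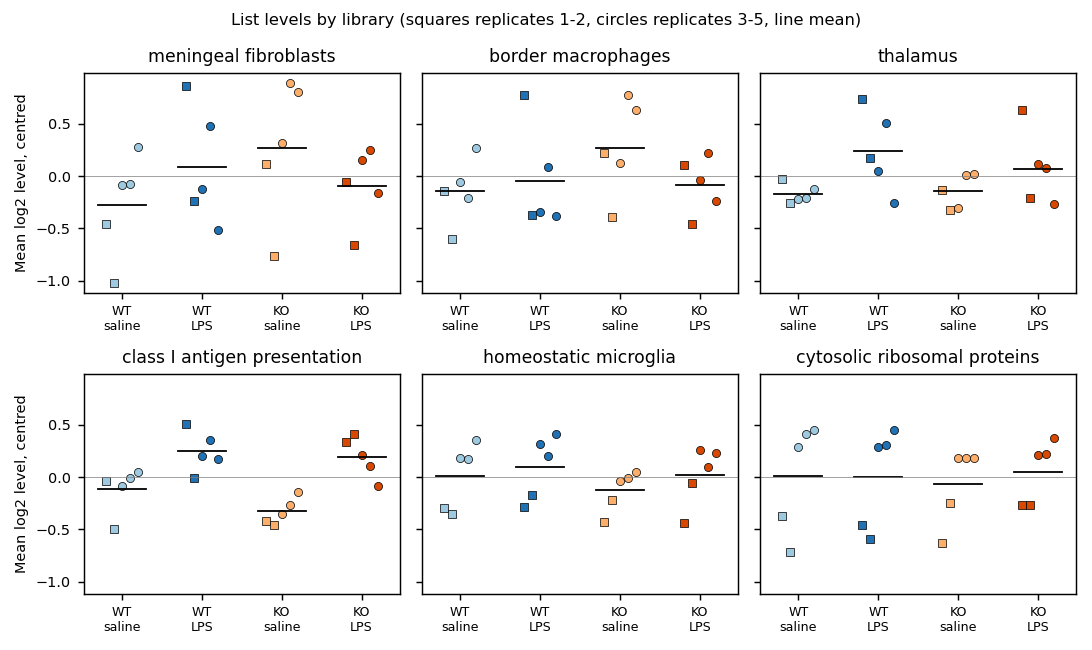
Mean log2 level of 6 gene lists in each library, centred over all libraries, with squares for replicates 1 and 2, circles for replicates 3 to 5 and a line at the group mean. Wild-type LPS replicate 1 and knockout saline replicates 4 and 5 are high on both the meningeal and the border macrophage lists, and ribosomal protein levels split by library set.

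In the pathway of FKBP5 itself, glucocorticoid receptor targets had 11 of 20 above 0 and a median of 0.04, with 0 at an unadjusted p under 0.05. The median was -0.22 with 6 of 20 above 0 in replicates 1 and 2, and 0.04 with 11 of 20 in replicates 3 to 5. Tsc22d3 (GILZ), a classic target, had -0.01, Sgk1 0.26 and Per1 0.02. HSP90 chaperones and corticosteroid receptors had 11 of 20 above 0 and a median of 0.01, also with 0 at that level and with -0.06 and 0.03 in the library sets. Nr3c1, the glucocorticoid receptor gene, had -0.20 (interval -0.63 to 0.24), Nr3c2, the mineralocorticoid receptor gene, -0.18, and Fkbp4, the related co-chaperone, -0.11.

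Microglial and innate lists held small values. Homeostatic microglia had 12 of 16 above 0 and a median of 0.08, with Selplg, an adhesion ligand, at 0.30. Toll-like receptors and adaptors had 10 of 22 above 0 and a median of -0.09, at -0.22 in replicates 1 and 2 and 0.08 in replicates 3 to 5. Tlr3, the receptor for double-stranded RNA, had -0.33, and the LPS co-receptor gene Cd14 0.32. Interferon response genes had 8 of 27 above 0 and a median of -0.09. After LPS, 24 and 21 of the 27 were above 0 in wild-type and knockout, beside 7471 and 8621 of 16419 genes. In the NF-kB and chemokine list, with 6 of 14 above 0 and a median of -0.07, the adhesion molecule gene Icam1 had -0.81. Tnf, Il1b, Il6 and Ccl2 were among its 10 members below the filter.

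The library sets, which share no library, gave weakly related interactions. Across 15483 genes tested in both, Pearson's r was 0.08 and Spearman's rho 0.10, and 54.6% of genes had the same sign; genes are not independent replicates. The same comparison gave 0.24 and 0.14 for LPS in wild-type and 0.17 and 0.12 in knockout. Of the 100 genes with the smallest p in replicates 1 and 2, 64 had the same sign in replicates 3 to 5, and 63 did in the reverse direction. Across 16419 genes the wild-type and knockout responses, from separate libraries, had r of 0.23 and rho of 0.11, and 53.3% had the same sign.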

How the data were processed

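Hippocampal RNA was extracted with an RNeasy Plus kit and 1 µg per sample made into NEBNext Ultra libraries, per the labels' protocols. Reads were trimmed with Trimmomatic 0.38, inspected with FastQC and MultiQC and counted with featureCounts 1.6.0 on mm10, per the submitters' processing notes. Aligner, annotation release, strand setting and multi-mapping are not given in the sources used here. The authors deposited raw read counts for 55536 genes in 20 libraries, and all (100%) gene identifiers matched GENCODE M21, which gave symbols and positions.

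All 20 libraries entered 1 fit in edgeR 4.0.16 (R 4.3.3): TMM, filterByExpr by group, robust quasi-likelihood, 4 group means and a library set term. A gene was called at an edgeR p under 0.05 after Benjamini-Hochberg adjustment across the whole table, and intervals are at 95%. CPM use TMM factors. Gene lists (41, of which 39 had at least 4 tested members) are described by counts and medians, without a set test. List levels are means of log2 CPM with a prior count of 2. The script was tested on simulated data.

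Named genes are the 10 with the smallest interaction p per direction (without predicted, clone, unnamed and pseudogene entries), the 3 with the smallest p in each of the 6 highest and 6 lowest lists, and Fkbp5, Lag3, Saa3, H2-D1, Lyz2, Lcn2, Tlr2, Gfap, C3 and Nr3c1. Other genes were named after their values were seen. Members, lists, the library sets and the libraries left out were chosen with earlier results of these data known. Alternatives were no set term, the replicate number as a block, DESeq2 size factors, DESeq2 1.42.0, limma-voom (limma 3.58.1), no filter, a filter of 1 CPM in 5 libraries, each set alone, fits without the libraries high on thalamus or meningeal markers, both levels as terms, no genes within 20 Mb of Fkbp5, and leaving out each library. The libraries high on thalamus markers were wild-type LPS replicates 1 and 4 and knockout LPS replicate 1, and those high on meningeal markers (meninges-high) knockout saline replicates 4 and 5. A fit without these last 2 and wild-type LPS replicate 1, the 3 highest on meningeal markers, was added after the data were seen. No 2 columns were identical. After removal of group means, same-numbered libraries correlated at 0.264 to 0.854 (30 pairs, median 0.462) and other numbers of the same set at a median of 0.45. With the set removed too, same-numbered libraries of replicates 3 to 5 correlated at -0.122 to 0.157. In replicates 1 and 2 they correlated at -0.265 to 0.63 (6 pairs of groups). Beyond the library set, a term of the fit, pairing is not established; the replicate block is given beside the calls it changes.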

Additional observations from a re-analysis of the deposited data

Results flagged for a closer look

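In 164 groups of 5 libraries examined (29 genes and 12 lists in 4 groups each), 4 held a library far from the others by Dixon's test at the 95% level; chance gives about 1 in 20. Dmac1, the gene with the smallest interaction p, was at 19.6 CPM in knockout LPS replicate 1, against 22.9 to 24 CPM in the other knockout LPS libraries. Nop10 was at 17.3 CPM in wild-type LPS replicate 2, against 22.9 to 24 CPM in the others of that group. Zic2 was at 7.52 CPM in wild-type saline replicate 2, against 10.2 to 11.2 CPM. Class I antigen presentation had a mean log2 level of -0.498 in the same wild-type saline replicate 2, against -0.0862 to 0.0499 in the other wild-type saline libraries. Without that library 1064 of 16568 genes (6.42%) had an unadjusted interaction p under 0.05 (edgeR), against 472 (2.87%) with it. The share without it is above the 0.05 listed on average when no gene differs. Still, 0 passed the adjusted threshold, and the smallest adjusted p there was 0.712 (edgeR).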

How the results depend on the processing

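The interaction had 0 calls in every alternative but 1, the fit without a filter on low counts, which called 38 genes higher and 47 lower (85 in all, of 33626 tested). There edgeR estimated infinite prior degrees of freedom, against a median of 6.12 with the filter. Of the 85 genes, 76 were among those tested with the filter. Zic2, Timp3 and Foxc2 were among the 85, as were the meningeal fibroblast markers Aldh1a2, Ogn, Col1a1 and Col1a2. Nid1, Dusp16, Ddc and Dmac1 were not. That fit also listed 1286 genes at an unadjusted p under 0.05 and called 157 for LPS in wild-type and 217 in knockout. The unadjusted count was 182 without the set term and 189 in replicates 1 and 2 alone. LPS calls in wild-type and knockout were 0 and 1 without the set term, 0 and 1 in replicates 1 and 2, 0 and 2 in replicates 3 to 5, 8 and 19 by DESeq2, 1 and 3 by limma-voom, 1 and 2 without the 2 meninges-high libraries (knockout saline replicates 4 and 5), 1 and 2 without these and wild-type LPS replicate 1, where knockout Lag3 was not called at a log2 response of 1.19, 1 in wild-type under the stricter filter, and 2 in knockout with the thalamus and meningeal terms. With the replicate number as a block there were 0 interaction calls, 591 unadjusted, and 3 and 5 LPS calls; Neurl3 and H2-D1 lost their knockout calls, and the block changed no other call. Leaving out single libraries gave 349 (2.11%) to 1064 (6.42%) unadjusted genes (wild-type saline replicates 1 and 2), 1 to 2 wild-type calls and 2 to 8 knockout calls. Saa3 was called in every such fit in both genotypes and Lag3 in every one in knockout, but in wild-type Lag3 in 2 and Lyz2 in 3 of 20. Over single libraries left out, medians ran from -1.14 to -0.53 for meningeal fibroblasts, -0.82 to -0.12 for border macrophages and -0.41 to 0.054 for class II. They also crossed 0 for residual blood (-1.11 to 0.12), CA1 (-0.033 to 0.22) and immediate early genes (-0.019 to 0.27), and ran from -0.41 to -0.13 for dentate granule cells, -0.40 to -0.19 for pericytes, 0.079 to 0.22 for class I and 0.067 to 0.39 for ependymal cilia.

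Medians that moved by more than the spread of the list's level between libraries were meningeal fibroblasts at -0.061 (both terms); border macrophages at -0.33 (replicates 3 to 5), -0.20 (without the thalamus-high libraries), -0.29 (without the meninges-high libraries) and 0.086 (both terms); class II at -0.64 (replicates 1 and 2), 0.082 (without the thalamus-high libraries) and 0.24 (both terms); pericytes at 0.073, immediate early genes at -0.24 and ependymal cilia at 0.93 (over members past the filter there) in replicates 1 and 2; and immediate early genes at 0.40 and ependymal cilia at -0.34 in replicates 3 to 5. Single genes changed sign with both terms (Mrc1 0.086, Cd163 0.032, H2-Aa 0.24), without the meninges-high libraries (H2-Aa 0.057, Gfap 0.029), in replicates 1 and 2 (Acta2 0.071, Bpgm -0.038, Nr4a1 -0.13, Egr2 -0.77, Lag3 -0.057, Gfap 0.036), in replicates 3 to 5 (Tekt1 -0.13, C3 -0.0092, Nr3c1 0.021) and without single knockout saline libraries (Hba-a2 0.27, of a range from -2.50, and Gfap 0.016). Without the 3 libraries highest on meningeal markers, added after the data were seen, medians were -0.24 for meningeal fibroblasts, 0.084 for border macrophages, 0.26 for class II and 0.049 for pericytes, with H2-Aa at 0.36 and Gfap at 0.032. Within that spread, residual blood went to -0.60 and 0.14 and dentate granule cells to -0.33 and -0.024 in the library sets. For these shifts the cause was not tested.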

Other observations

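Other gene groups had small medians, and none of their members passed the interaction test (edgeR). Myelinating oligodendrocyte genes had 3 of 14 members above 0 and a median of -0.16, with median log2 responses of 0.21 in wild-type and 0.11 in knockout. Oligodendrocyte precursors had 6 of 12 above 0 and a median of -0.02. Complement genes had 8 of 17 above 0 and a median of -0.04. Activated microglia had 13 of 19 above 0 and a median of 0.08. That median was 0.08 and -0.05 in the library sets, with 13 of 19 and 7 of 18 members above 0. Spp1, the osteopontin gene, went against the list at -1.43 ± 0.65 (SE), and no other member had an unadjusted p under 0.05 (edgeR). Circadian clock genes had 6 of 17 above 0 and a median of -0.05. GABA-A receptor subunits had 4 of 12 above 0 and a median of -0.10, and ionotropic glutamate receptors 10 of 15 and 0.04, with the kainate receptor gene Grik1 at 0.48. Cholesterol synthesis had 13 of 17 above 0 and a median of 0.05, and nuclear oxidative phosphorylation subunits 15 of 20 and 0.07. Striatum and neocortex markers, of regions next to the hippocampus, had medians of -0.06 and -0.11.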
